A study of Mus musculus with 12 samples.

Results

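The genes described here are 9 markers and regulators of the epithelial-mesenchymal transition: the cadherins Cdh1, Cdh2 and Cdh11, the intermediate filament gene Vim, and the transcription factor genes Snai1, Snai2, Twist1, Zeb1 and Zeb2. They were found as the probe sets whose annotated symbol was exactly one of these names. This gave 21 probe sets out of 45037, and all 9 genes were present among the 18193 with a probe set of their own symbol. Each gene is represented by its brightest probe set (by mean log2 signal over all 12 arrays), with its other probe sets used as a check. Of the 21 probe sets, 15 were bright enough to be tested, the brightest of every gene among them.

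The cells were D3, a mouse embryonic stem cell line, kept for 7 days in standard embryonic stem cell medium with 15% serum. There were 4 groups of 3 arrays each: LIF-free plus lithium, LIF-free, LIF plus lithium, and LIF. LIF, the cytokine that signals through STAT3 to keep such cells self-renewing, was at 1000 units per ml where present. Lithium, an inhibitor of the kinase GSK3, was at 50 nM per the labels. GSK3 is usually inhibited with millimolar lithium, so it is not known whether the kinase was inhibited here, and the lithium comparisons are of the cultures as labelled. All groups are the same line with no genetic change described, and the labels number biological replicates 1 to 3 in each group. The series text counts 3 independent experiments in every replicate, which may mean pooled material, and does not say what a replicate number marks, so p-values measure the spread between these samples, which may be technical. The design asks what loss of LIF changes, what lithium changes, and whether one depends on the other. RNA came from whole cultures, so fewer cells of a type and less RNA per cell cannot be told apart.

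Cadherins are calcium-dependent adhesion proteins that hold neighbouring cells together and are tied to actin through catenins. In the epithelial-mesenchymal transition, transcriptional repressors of the Snail, Zeb and Twist families bind E-box elements and shut down E-cadherin, while N-cadherin and vimentin appear. In mouse embryonic stem cells E-cadherin is the main cadherin of the compact colonies, and a transition of this kind takes place in the embryo as mesoderm leaves the primitive streak.

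Of the 9 members, 4 had an entry in a RefSeq table of promoter windows (build GRCm38.p6): Vim, Snai1, Twist1 and Zeb2. Cdh1, Cdh2, Cdh11, Snai2 and Zeb1 had none. The 250 bases before the start site are shown for the 3 of them that rose when LIF was absent, because the repressors under study read E-box letters. The windows are chr2:13574061-13574310 for Vim, chr2:167537945-167538194 for Snai1 and chr12:33957421-33957670 for Twist1, all on the plus strand and written 5′ to 3′. Capitals mark the E-box CANNTG, which reads the same on both strands.
Vim: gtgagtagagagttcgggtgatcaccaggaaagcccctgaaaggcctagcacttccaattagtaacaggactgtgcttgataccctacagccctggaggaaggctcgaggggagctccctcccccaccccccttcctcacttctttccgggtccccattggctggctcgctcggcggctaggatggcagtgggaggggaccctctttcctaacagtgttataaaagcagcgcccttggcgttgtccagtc
Snai1: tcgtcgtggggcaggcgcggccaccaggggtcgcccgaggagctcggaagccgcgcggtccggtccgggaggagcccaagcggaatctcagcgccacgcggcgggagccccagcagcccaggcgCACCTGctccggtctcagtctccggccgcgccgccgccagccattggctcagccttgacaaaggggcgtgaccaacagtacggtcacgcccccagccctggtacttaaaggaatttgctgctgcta
Twist1: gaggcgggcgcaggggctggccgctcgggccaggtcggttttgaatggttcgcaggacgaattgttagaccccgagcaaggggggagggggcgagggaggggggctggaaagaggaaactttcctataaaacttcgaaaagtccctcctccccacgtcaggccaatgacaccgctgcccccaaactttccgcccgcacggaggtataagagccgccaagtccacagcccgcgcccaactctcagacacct
The Snai1 window held 1 CANNTG, and it has the letters CACCTG that Snail and Zeb proteins prefer, with its first base at -126 from the start site. The Vim and Twist1 windows held 0, as did each of the 4 windows of Zeb2. CANNTG occurs in 66.2% of the 32817 windows of the table, and CACCTG or its reverse complement CAGGTG, which is one form of CANNTG, in 17.2%. The STAT-type letters TTCNNNGAA (the same on both strands; 7.01% of windows) and the TCF-type letters CTTTGAA or CTTTGAT on either strand (7.48% of windows) were in none of the 3 windows printed, and TTCNNNGAA stood once in each of a pair of Zeb2 windows that overlap. These are matches of letters and nothing more.

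Signals are MAS5 values scaled to the same trimmed mean on every array. Median signal per array was 10.5 to 19.3, and any 2 arrays had a Pearson correlation of log2 signal, over probe sets, of 0.864 to 0.97. Stem cell markers were present in every group: the summed signal of 10 stem cell markers was 10056 to 15405 in LIF-free plus lithium arrays, 12487 to 15722 in LIF-free arrays, 24063 to 25699 in LIF plus lithium arrays and 20739 to 31886 in LIF arrays. In the withdrawal averaged over both lithium states 9 of these 10 markers fell (Pou5f1 with a log2 change of -1.48, Klf4 -2.25), with Dppa5a the exception. The Gapdh 3′ to 5′ probe ratio averaged 0.783 in LIF-free plus lithium, 0.764 in LIF-free, 0.832 in LIF plus lithium and 0.816 in LIF arrays, and the beta-actin ratio averaged 1.61, 1.55, 1.75 and 1.77 in the same order; their part in the results below was not tested.

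LIF withdrawal was compared as LIF-free minus LIF without lithium, as the same difference with lithium, and as the average of both, here called pooled withdrawal (6 arrays against 6). In pooled withdrawal 7 of the 9 members rose and none fell. These were Cdh1, Cdh2, Cdh11, Vim, Snai1, Snai2 and Twist1. The brightest sets of Zeb1 and Zeb2 did not pass, while the second Zeb2 set did (log2 change 1.82, adjusted p = 0.00383). The epithelial cadherin and the mesenchymal cadherins thus rose in the same cultures, E-cadherin by 1.34-fold and N-cadherin by 7.25-fold. Of all 27022 probe sets tested, 24.7% were called in pooled withdrawal, 13.9% higher and 10.8% lower. The members' median log2 change was 1.39, beside 0.02 over all probe sets tested. The 6 arrays without LIF lay above all 6 with LIF for 3 members (Cdh1, Snai2 and Vim), and did so for 8.22% of all probe sets.

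**Figure D1:**
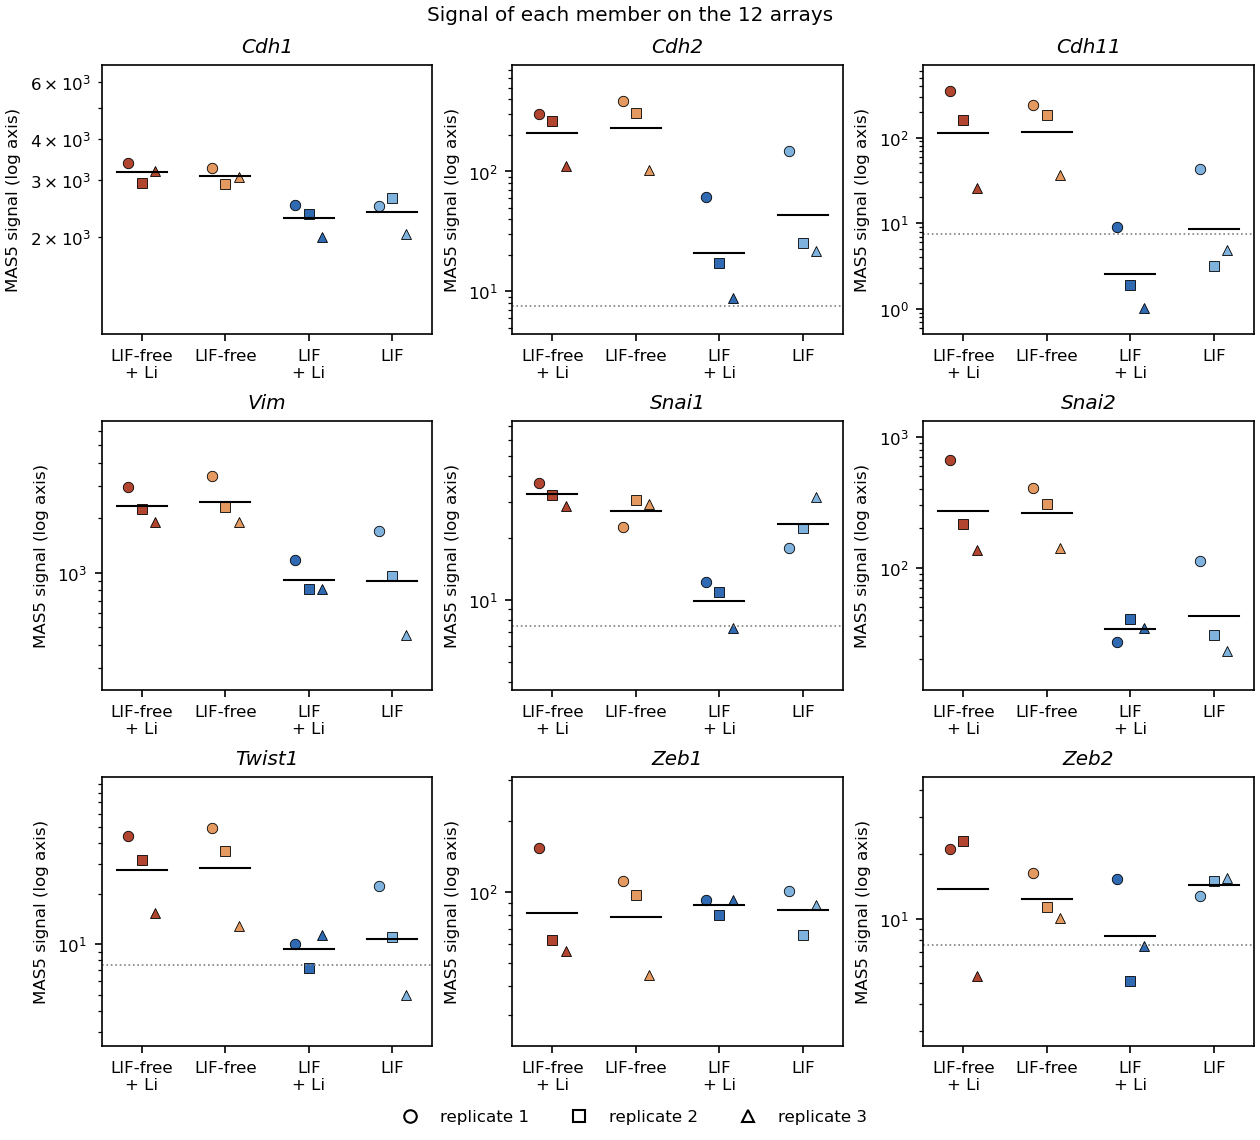
MAS5 signal (log axis) of the brightest probe set of each of the 9 members in the 12 arrays, by group. Points are arrays marked by replicate number, black lines are geometric means of 3 arrays and the dotted line is the signal of 7.52 used as the filter on mean signal; Cdh1, Snai2 and Vim are the members whose 6 LIF-free points all lie above their 6 LIF points.

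Cdh1 encodes E-cadherin, the adhesion protein of epithelia and of stem cell colonies. Its signal was 3383, 2939 and 3183 in LIF-free plus lithium arrays, 3270.2, 2912 and 3056 in LIF-free arrays, 2497, 2349 and 2001 in LIF plus lithium arrays, and 2481, 2641 and 2046 in LIF arrays (replicates 1, 2 and 3, an order kept below). All 6 arrays without LIF lay above all 6 with LIF, and the gap was small. The log2 change in pooled withdrawal was 0.42 ± 0.09 (SE; limma, adjusted p = 0.00429), and all 6 pairs of arrays with equal lithium and replicate number rose, by 0.14 to 0.67. Neither the 2 groups without LIF nor the 2 groups with LIF differed from each other beyond their spread.

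Cdh2 encodes N-cadherin, found on mesoderm and neural tissue. Its signal was 304, 264 and 111 in LIF-free plus lithium arrays, 384, 307 and 103 in LIF-free arrays, 60.9, 17.1 and 8.81 in LIF plus lithium arrays, and 147, 25.2 and 21.9 in LIF arrays. The groups without LIF were higher but overlapped those with LIF, because LIF replicate 1 lay above replicate 3 of both LIF-free groups. Within each replicate number the arrays without LIF were higher in 6 of 6 pairs, by 1.39 to 3.94 on the log2 scale. Pooled withdrawal gave a log2 change of 2.86 ± 0.56 (adjusted p = 0.00265), and the second Cdh2 probe set gave 2.36 ± 0.45 (adjusted p = 0.0021).

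Cdh11, which encodes a cadherin of mesenchyme and bone-forming cells, had the largest log2 change of the 9 members. Its signal was 348, 159 and 25.9 in LIF-free plus lithium arrays, 241, 181 and 36.9 in LIF-free arrays, 9.0, 1.9 and 1.02 in LIF plus lithium arrays, and 42.6, 3.21 and 4.84 in LIF arrays. Of the values with LIF, 4 of 6 lay below the filter signal of 7.52, near background, and LIF replicate 1 overlapped the LIF-free values. The log2 change in pooled withdrawal was 4.59 ± 0.82 (adjusted p = 0.00136), a size that rests on those low values: with a pseudocount of 16 it was 2.55 (adjusted p = 0.00252). All 6 within-number pairs rose, by 2.5 to 6.38. The second Cdh11 probe set was too dim to be tested and rose in 5 of 6 pairs.

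Vim encodes vimentin, the intermediate filament protein of mesenchymal cells. Its signal was 2942, 2238 and 1888 in LIF-free plus lithium arrays, 3395, 2283 and 1898 in LIF-free arrays, 1167, 814 and 811 in LIF plus lithium arrays, and 1692, 963 and 453 in LIF arrays. Every array without LIF lay above every array with LIF. The log2 change in pooled withdrawal was 1.39 ± 0.26 (adjusted p = 0.00215; 2.62-fold), and the other 2 Vim probe sets gave 1.56 ± 0.23 and 1.26 ± 0.24 (adjusted p = 0.000449 and 0.00197). The brightest Vim set, like that of Snai2, is of a class (_x_at) that may pick up similar transcripts, and in both genes the sets outside this class moved the same way.

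Snai2 encodes Slug, an E-box repressor of mesoderm and neural crest. Its signal was 661, 216 and 137 in LIF-free plus lithium arrays, 409, 306 and 141 in LIF-free arrays, 27.1, 40.5 and 34.6 in LIF plus lithium arrays, and 112, 30.5 and 23.1 in LIF arrays. The groups with and without LIF did not overlap, although LIF replicate 1 came close. Its log2 change in pooled withdrawal was 2.80 ± 0.44 (adjusted p = 0.000592; 6.97-fold), and 1.98 ± 0.40 by the second probe set (adjusted p = 0.00299). All 6 within-number pairs rose, by 1.87 to 4.61.

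Snai1 encodes Snail, which mesoderm cells of the mouse gastrula need to switch off E-cadherin. Its signal was 37.0, 32.3 and 28.8 in LIF-free plus lithium arrays, 22.7, 30.5 and 29.2 in LIF-free arrays, 12.2, 11 and 7.31 in LIF plus lithium arrays, and 18.0, 22.5 and 31.5 in LIF arrays. The LIF plus lithium arrays lay below all 9 others, while the LIF-free and LIF arrays overlapped. Its group means stood in the same order as those of Snai2, with the gap above LIF plus lithium, not between the groups without LIF and those with it. Pooled withdrawal gave a log2 change of 0.97 ± 0.23 (adjusted p = 0.00816), or 0.51 with a pseudocount of 16. The change was 1.71 ± 0.33 with lithium (adjusted p = 0.00539) and 0.22 ± 0.33 without it (adjusted p = 0.739), and the difference between these did not pass (interaction, adjusted p = 0.999).

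Twist1 encodes a basic helix-loop-helix factor of mesoderm. Its signal was 43.9, 31.6 and 15.4 in LIF-free plus lithium arrays, 49.5, 35.8 and 12.9 in LIF-free arrays, 10.0, 7.24 and 11.4 in LIF plus lithium arrays, and 22.1, 11.1 and 4.95 in LIF arrays. LIF replicate 1 lay above replicate 3 of both LIF-free groups, and the other values were apart. The log2 change in pooled withdrawal was 1.49 ± 0.44 (adjusted p = 0.024), or 0.77 with a pseudocount of 16. The call ended when any 1 of 5 arrays was left out: adjusted p was 0.0583 without LIF plus lithium replicate 2, 0.0623 and 0.0606 without LIF-free replicates 1 and 2, and 0.063 and 0.0556 without LIF-free plus lithium replicates 1 and 2. The other 6 calls of pooled withdrawal held in all 12 such fits. Leaving out replicate 2 of every group, an alternative chosen after seeing the data, ended all 7 calls, with the lowest adjusted p at 0.0571 (Snai2), while the 7 log2 changes stayed positive.

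Zeb1 and Zeb2 encode zinc-finger homeobox repressors of E-cadherin. Zeb1 signal was 154, 62.9 and 56.0 in LIF-free plus lithium arrays, 112, 96.9 and 44.5 in LIF-free arrays, 92.8, 80.1 and 92.8 in LIF plus lithium arrays, and 101, 65.7 and 87.9 in LIF arrays. All 4 groups overlapped, and no neighbouring pair of group means differed beyond its spread. The log2 change in pooled withdrawal was -0.10 (95% interval -0.70 to 0.49; adjusted p = 0.837), an interval that leaves room for changes in either direction. The second Zeb1 set, with signals of 2.74 to 21.8, gave 1.02 ± 0.39 (adjusted p = 0.0772), so the probe sets of Zeb1 do not give one answer.

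The brightest Zeb2 set read 21.1, 23.0 and 5.39 in LIF-free plus lithium arrays, 16.4, 11.4 and 10.1 in LIF-free arrays, 15.4, 5.1 and 7.49 in LIF plus lithium arrays, and 12.8, 15.1 and 15.5 in LIF arrays. The groups overlapped, and pooled withdrawal gave a log2 change of 0.25 (95% interval -0.64 to 1.14; adjusted p = 0.726). The second Zeb2 set read 28.5, 21.3 and 16.1 in LIF-free plus lithium arrays, 11.2, 16 and 11.9 in LIF-free arrays, 8.58, 3.71 and 2.92 in LIF plus lithium arrays, and 4.48, 3.44 and 7.4 in LIF arrays. In that set all 6 arrays without LIF lay above all 6 with LIF, and its log2 change was 1.82 ± 0.38 (adjusted p = 0.00383). The 3 other Zeb2 sets were too dim to be tested. The third averaged 18.2 in LIF-free plus lithium, 17.1 in LIF-free, 1.79 in LIF plus lithium and 6.36 in LIF arrays, and its lowest array without LIF (11.1) lay above its highest with LIF (10.6). The fourth averaged 7.99, 9.93, 2.01 and 4.06 in the same order of groups, and the fifth lay under 5 in all 12 arrays. The brightest Zeb2 set was thus not called, while the arrays with and without LIF did not overlap in the next 2 by brightness. Which transcripts either set detects was not tested.

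**Figure D2:**
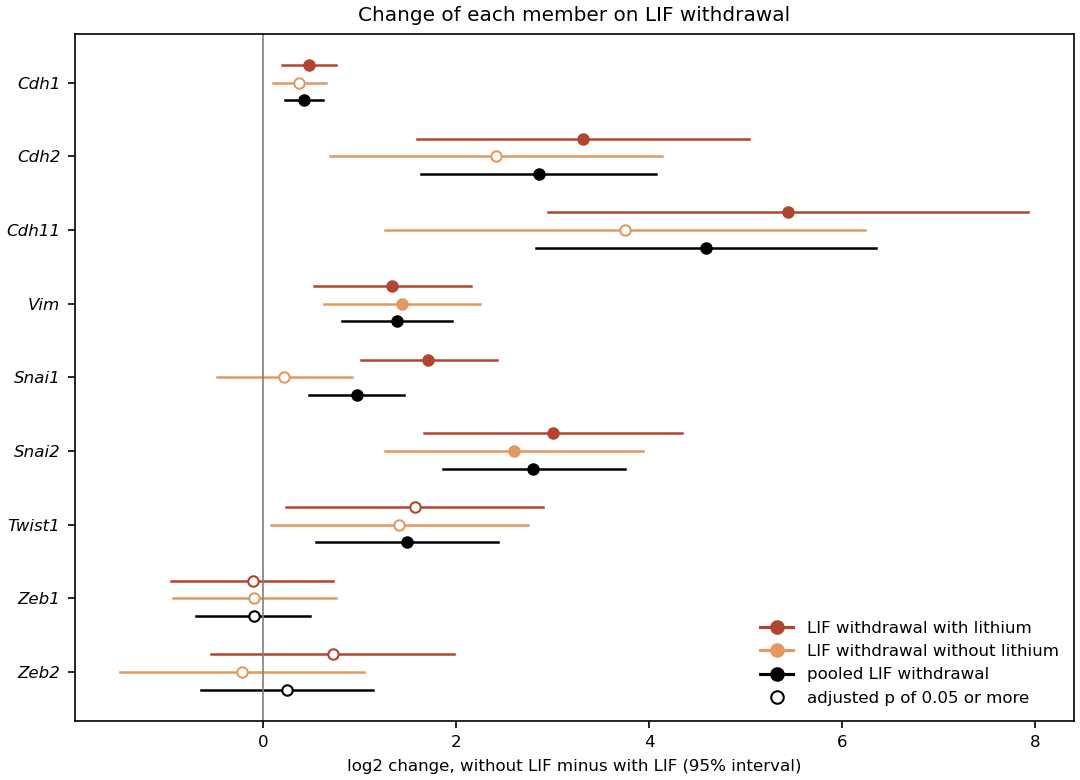
Log2 change (horizontal axis, without LIF minus with LIF) of each member on LIF withdrawal with lithium, without lithium and pooled, by the brightest probe set. Points are limma estimates, lines are 95% intervals and filled points have an adjusted p under 0.05; Zeb1 and Zeb2 have intervals that include 0 in all 3 comparisons.

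With lithium, 6 of the 9 members rose on withdrawal and none fell, where 12.5% of all probe sets tested were called and 7.53% were called higher. The 6 were Cdh1, Cdh2, Cdh11, Vim, Snai1 and Snai2. Without lithium, 2 of 9 rose, Snai2 (2.60 ± 0.62, adjusted p = 0.0207) and Vim (1.44 ± 0.37, adjusted p = 0.0303), where 9.31% were called and 5.4% were called higher. The members' median log2 change was 1.57 with lithium and 1.41 without it, beside 0.11 and -0.07 over all probe sets. Centring each array on its median moved the share of calls that were higher, with lithium, to 49.0% from 60.4% over all probe sets; it changed the sign of no called member. Arrays of the groups did not overlap for 7 members with lithium (19.9% of all probe sets, higher) and for 3 without it (13.8%).

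Replicate numbers were taken to pair the arrays without lithium, since residuals of equal numbers correlated above the cut of 0.1 in all 3 pairs. The replicate 2 correlation, 0.137, was close to that cut. The block was fitted to all groups together. Replicate 2 missed the cut between LIF-free plus lithium and either group with LIF (0.0972 with LIF plus lithium, 0.0316 with LIF). The blocked calls thus assume a pairing that not every pair of groups showed. With the number as a block, 6 of 9 members rose without lithium, against 10.0% of all probe sets called higher in that fit: Cdh1, Cdh2, Cdh11 and Twist1 passed besides Snai2 and Vim. The blocked log2 changes were 2.41 ± 0.35 for Cdh2 (adjusted p = 0.00043; 0.0769 without the block) and 3.75 ± 0.53 for Cdh11 (adjusted p = 0.000346; 0.0589 without). Cdh1 reached an adjusted p of 0.0395 with the block and 0.087 without, and Twist1 0.039 and 0.177. None of the 9 differences between the withdrawal with lithium and the withdrawal without it passed as an interaction (adjusted p = 0.999 for each).

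Single arrays decided several of these calls. Without lithium, Snai2 and Vim both missed the threshold when LIF replicate 2 or 3 or LIF-free replicate 1 or 2 was left out, with adjusted p of 0.0784 to 0.0875 for Snai2 and 0.0808 to 0.109 for Vim. Leaving out LIF replicate 1 instead added Cdh2 (3.29, adjusted p = 0.00997) and Cdh11 (4.89, adjusted p = 0.0114). Both also passed without LIF plus lithium replicate 1 (adjusted p = 0.0455 and 0.0441), and Cdh11 without LIF-free plus lithium replicate 3 (adjusted p = 0.0453).

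With lithium, Cdh1 and Vim were lost without LIF plus lithium replicate 2 or 3 or LIF-free plus lithium replicate 1 or 2 (adjusted p of 0.0577 to 0.14 for Cdh1 and 0.0944 to 0.132 for Vim). Cdh1 was also lost without LIF-free plus lithium replicate 3 (0.0614) and Vim without LIF-free replicate 2 (0.0508). Cdh2 was lost without the same 4 arrays as Cdh1 and Vim share (0.0647 to 0.0885), and Cdh11 only without LIF plus lithium replicate 3 (0.0515). Snai1 and Snai2 kept their calls in all 12 fits. The log2 change of each member kept its direction throughout wherever it had been called.

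A pattern by replicate number ran through the members. Cdh2 and Vim were highest in replicate 1 and lowest in replicate 3 in 4 of 4 groups. Cdh11 and Zeb1 were highest in replicate 1 in 4 of 4 groups, and Cdh1, Snai2 and Twist1 in 3 of 4. Snai1 and Zeb2 were highest in replicate 1 in 2 of 4 groups. Median signal over all probe sets was also highest in replicate 1 of every group. It was 19.3, 17.2 and 12.4 in LIF-free plus lithium arrays and 16.6, 13 and 13.4 in LIF-free arrays. In LIF plus lithium arrays it was 16, 12 and 10.5, and in LIF arrays 17.5, 14.2 and 17.4. How many of all probe sets had this order was not counted, so the pattern may not be particular to the members. What a replicate number stands for is not given in the labels.

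**Figure D3:**
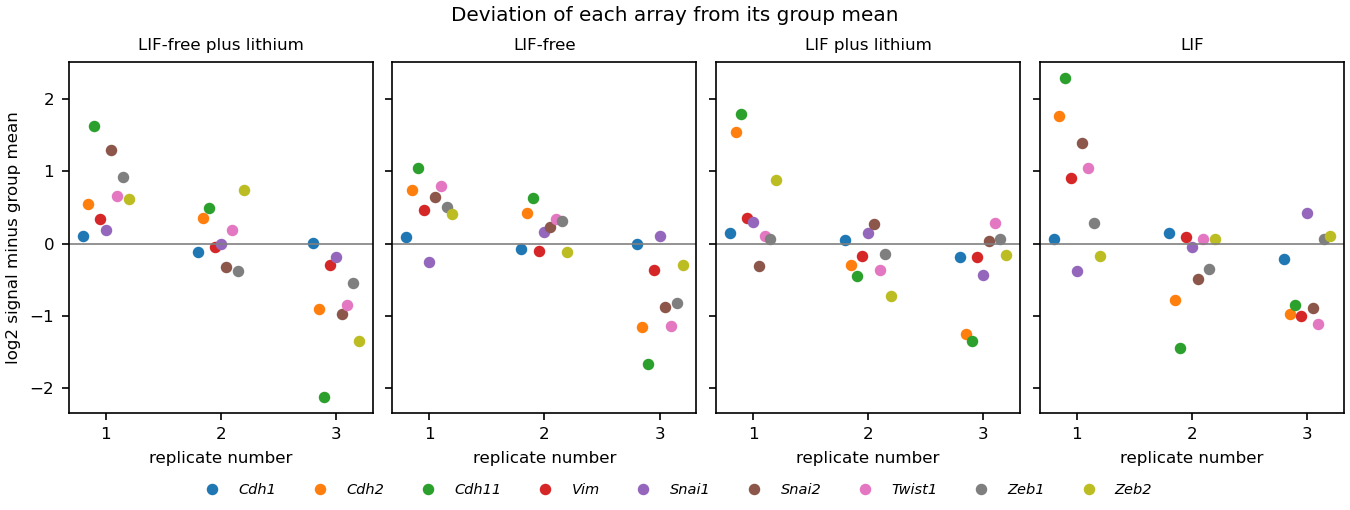
Deviation of each array from its group mean (log2 signal) for the members, by replicate number and group. Cdh2 and Vim lie highest in replicate 1 and lowest in replicate 3 in all 4 groups.

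Adding lithium changed none of the 9 members by the limma test, either without LIF or with it, and 0.0% of probe sets were called in either comparison or in the interaction. At an unadjusted p under 0.05 there were 0 of 9 members without LIF, 1 with LIF and 1 in the interaction, beside 1.28%, 2.77% and 2.46% of all probe sets. The 1 member was Snai1 in both. LIF plus lithium arrays read 12.2, 11 and 7.31 and LIF arrays 18.0, 22.5 and 31.5, a log2 change of -1.24 ± 0.33 (unadjusted p = 0.00217, adjusted p = 0.999; 0.801 with the replicate block), lower in 3 of 3 pairs. The groups did not overlap, as for 5.08% of all probe sets in that direction. The Snai1 interaction was 1.5 ± 0.46 (unadjusted p = 0.00627, adjusted p = 0.999).

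The intervals set what lithium effects remain possible. For Cdh1 the 95% interval of the log2 change was -0.24 to 0.32 without LIF and -0.34 to 0.21 with it, the narrowest among the members. For Cdh11 it was -2.54 to 2.43 without LIF and -4.24 to 0.74 with it. With LIF, Cdh2 and Cdh11 were lower with lithium in 3 of 3 pairs (log2 change -1.05 and -1.75; -0.67 and -0.54 with a pseudocount of 16), and neither passed (adjusted p = 0.999 for both; 0.801 for both with the replicate block). Of the 6 Cdh11 signals in that comparison, 4 were under 7.52, the filter signal. The second Cdh2 set changed by only -0.29 (95% interval -1.66 to 1.08), with pairs at -0.51, -0.34 and -0.01. In the second Cdh11 set, too dim to be tested, the pairs of replicates 1, 2 and 3 differed by 0.0, -0.98 and -1.12. The LIF arrays enter both this comparison and the withdrawal without lithium, so the values are not independent of each other.

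**Figure D4:**
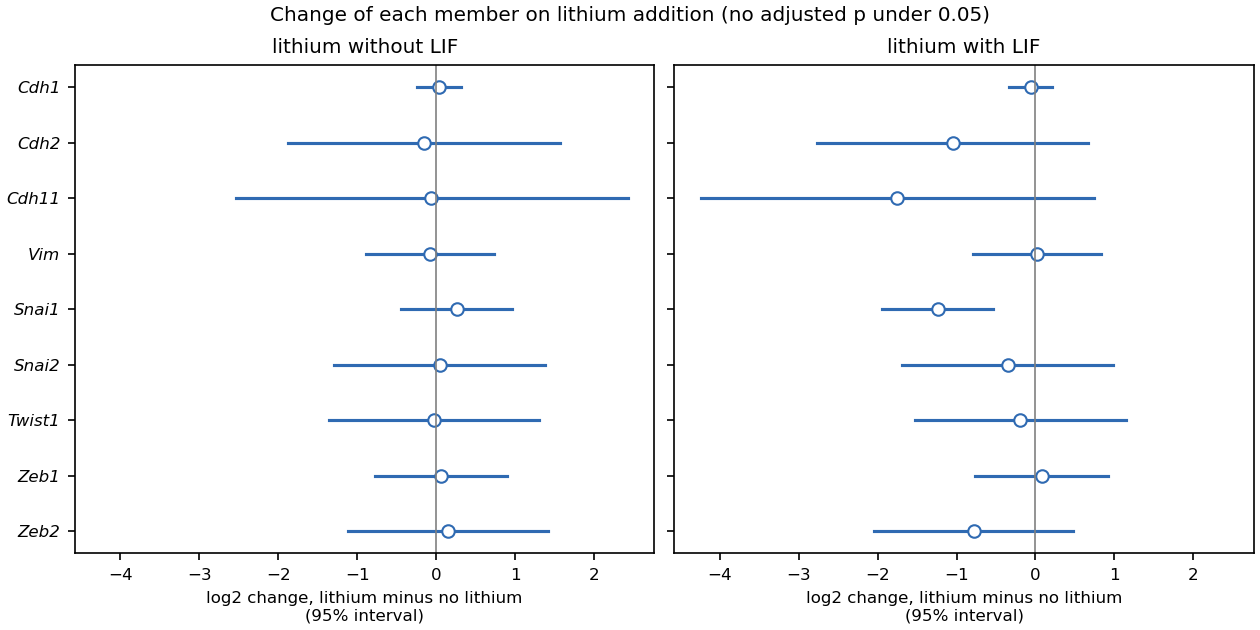
Log2 change of each member on lithium addition, without LIF (left) and with LIF (right), as limma estimates with 95% intervals. The Snai1 interval with LIF is the only one of 18 that excludes 0, and no adjusted p was under 0.05.

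Genes around the members were counted from lists of their partners. Beside each count in pooled withdrawal stands the share over all probe sets tested, 13.9% higher and 10.8% lower. Of 16 other cadherins, 8 were tested, and none passed in pooled withdrawal (median log2 change 0.63). Their changes were 1.34 for Cdh10, 0.85 for Cdh6, 0.84 for Cdh5, 0.70 for Cdh13, 0.57 for Cdh15, 0.56 for Cdh4, -0.04 for Cdh3 and -0.57 for Cdh22, at adjusted p of 0.107 to 0.96. P-cadherin, encoded by Cdh3, averaged 23.3 in LIF-free plus lithium, 23.3 in LIF-free, 23.0 in LIF plus lithium and 22.5 in LIF arrays. Cdh6 rose in withdrawal with lithium (2.09 ± 0.60, adjusted p = 0.037; 0.154 without LIF-free plus lithium replicate 1). With LIF, Cdh6 was the other cadherin with the smallest p for lithium, at a log2 change of -1.82 ± 0.60 (unadjusted p = 0.00919, adjusted p = 0.999).

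Catenins and junction partners had a smaller median change. Of 13 tested, 7 rose in pooled withdrawal and none fell, with a median of 0.24. Vcl, which encodes the actin linker vinculin, changed by 0.90 ± 0.16 (adjusted p = 0.00161), Ctnnd2 for delta-catenin by 1.52 ± 0.31 (adjusted p = 0.00316), and Adam10, the protease that sheds E-cadherin, by 0.57 ± 0.14 (adjusted p = 0.0102). With lithium Vcl and Ctnnd1 for p120-catenin passed with the smallest p (1.00 and 0.61, adjusted p = 0.0144 and 0.0411), and without it Ctnnd2 and Vcl (1.76 and 0.80, adjusted p = 0.0252 and 0.0479). These 4 calls ended with 1 array left out: adjusted p reached 0.0721 for Vcl and 0.179 for Ctnnd1 without LIF plus lithium replicate 3, 0.0929 for Ctnnd2 without LIF replicate 2, and 0.161 for Vcl without LIF replicate 3.

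Epithelial genes rose alongside Cdh1. Of 31 tested, 18 rose in pooled withdrawal and 1 fell, with a median of 0.80. The simple-epithelium keratins led: Krt18 (1.53 ± 0.13, adjusted p = 2.1e-05), Krt19 (1.81 ± 0.16, adjusted p = 2.12e-05) and Krt8 (1.65 ± 0.16, adjusted p = 3.39e-05). Krt18 and Krt19 also had the smallest p in both single withdrawals, at 1.60 and 1.83 with lithium and 1.45 and 1.78 without. The 1 that fell, named after its value was seen, was Grhl3, a grainyhead factor of surface epithelium (-0.90 ± 0.21, adjusted p = 0.00709).

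Other mesenchymal genes rose as well. Of 21 tested, 10 rose in pooled withdrawal and none fell, with a median of 0.75. They were led by the tropomyosins Tpm1 (1.37 ± 0.13, adjusted p = 2.42e-05) and Tpm2 (1.13 ± 0.13, adjusted p = 7.73e-05) and by Lgals1, which encodes galectin-1 (1.57 ± 0.18, adjusted p = 7.73e-05). In withdrawal with lithium Tpm1 and Lgals1 led (1.51 and 1.57), and without it Tpm1 and Tpm2 (1.24 and 1.16). Some genes of both lists thus rose on withdrawal, as Cdh1 and Vim did. In pooled withdrawal 12 of the 31 epithelial genes and 11 of the 21 mesenchymal genes were not called. Among these, named after their values were seen, were Epcam (adjusted p = 0.308), Fn1 (0.651), Acta2 (0.155) and Ncam1 (0.492).

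In a list of other E-box repressors, factors of the transition and Id genes, 8 of 11 tested rose in pooled withdrawal and none fell (median 0.83). The 8 include Id1, Id2 and Id3, whose proteins block such factors and are not E-box repressors. Snai3, Tcf3 and Tcf4 were not called (adjusted p = 0.961, 0.876 and 0.638). Id1 and these 3 genes were named here after their values were seen. Id2 and Id3 encode proteins that bind and block helix-loop-helix partners of factors such as Twist1, and changed by 1.61 ± 0.18 and 2.65 ± 0.34 (adjusted p = 7.56e-05 and 0.000167). Tcf12, whose protein pairs with Twist1, changed by 0.83 ± 0.13 (adjusted p = 0.000513). Id2 and Id3 also led with lithium (1.71 and 2.67) and without it (1.51 and 2.62).

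TGF-beta signalling is an inducer of Snail genes in many epithelia. Of 14 genes of its inputs and outputs, 8 rose in pooled withdrawal and 1 fell (median 0.81). Smad3, a signal transducer, changed by 0.98 ± 0.11 (adjusted p = 6.05e-05), and the receptors Tgfbr3 and Tgfbr2 by 1.53 ± 0.20 and 1.21 ± 0.16 (adjusted p = 0.000183 and 0.000193). Smad3 and Tgfbr2 led with lithium (1.02 and 1.23), and Tgfbr3 and Smad3 without it (1.78 and 0.93). The inhibitor Smad7, named after its value was seen, fell by 0.59 on the log2 scale (adjusted p = 0.014).

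Snail protein is marked for breakdown by GSK3 and the ligase adaptor beta-TrCP. Genes of its kinases and ligases were counted too, in 1 list with corepressor genes such as Hdac2. Of 14 tested, 4 rose in pooled withdrawal and 2 fell, with a median of 0.07, close to that of all probe sets. Prkd1, a kinase that phosphorylates Snail in human cells, changed by 2.21 ± 0.29 (adjusted p = 0.000166), Lats2 by 1.74 ± 0.29 (adjusted p = 0.000825, by an _x_at set) and Hdac2, a corepressor enzyme, by -0.51 ± 0.08 (adjusted p = 0.00071). Prkd1 and Lats2 led with lithium (2.27 and 1.88; Lats2 reached an adjusted p of 0.0538 without LIF plus lithium replicate 3), and Prkd1 and Hdac2 without it (2.15 and -0.52; Hdac2 reached 0.0657 without LIF-free replicate 2). The other gene that fell, Csnk1e, was named after its value was seen (-0.73 ± 0.22, adjusted p = 0.0264; 0.0698 without LIF plus lithium replicate 3). Gsk3b and Fbxw11, the other genes that rose, were also named after their values were seen (adjusted p = 0.00586 and 0.0397). Fbxw11 reached 0.0807 without LIF-free plus lithium replicate 3. Gsk3a and Btrc, named in the same way, were not called (adjusted p = 0.801 and 0.723). Of the companion and marker lists counted here, no called gene had the other sign under quantile normalization or median centring.

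No gene of these 7 lists was called for lithium or for the interaction. The smallest p with LIF belonged, besides Cdh6, to Fbxw11, Smad4, Cldn6, Mmp2, Jup and Id1 (log2 changes 0.39, 0.25, -0.41, -0.40, -0.40 and -0.31). Without LIF they belonged to Ltbp1, Afdn, Fbxl5, Rab25, Cdh6, Snai3 and Ncam1 (0.60, 0.34, -0.22, -0.83, 0.67, 0.37 and 0.22). In the interaction they belonged to Cdh6, Ltbp1, Ctnnbip1, Btrc, Mmp2, Cldn6 and Id1 (2.49, 0.96, 0.56, 0.66, 0.59, 0.45 and 0.47). All of these had an adjusted p of 0.999 or 1.0.

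**Figure D5:**
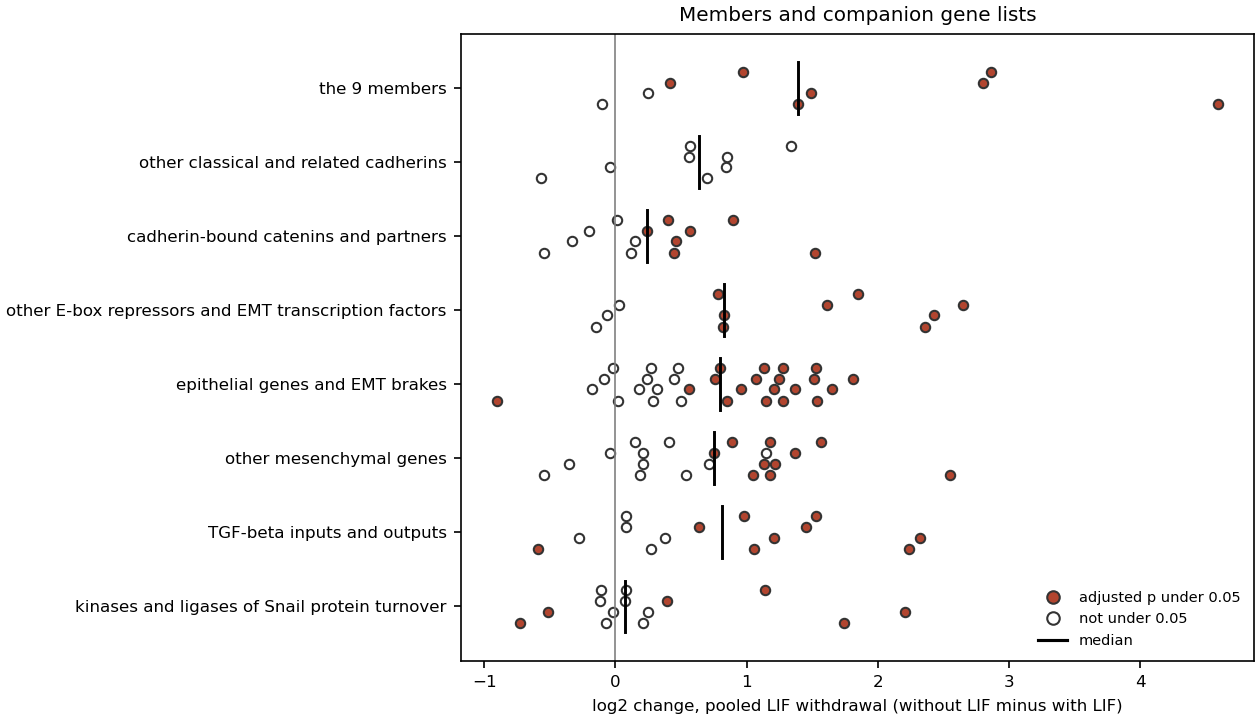
Log2 change in pooled LIF withdrawal (horizontal axis) of each tested gene of the members and of the 7 companion lists, one point per gene, with list medians as vertical lines. Filled points have an adjusted p under 0.05, and the medians run between 0.07 and 1.39.

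Some markers of fibroblasts moved with the members, and others were not called. For 17 fibroblast and feeder cell genes the summed signal was 543 to 979.6 in LIF-free plus lithium arrays, 556 to 834 in LIF-free arrays, 258 to 428 in LIF plus lithium arrays and 306 to 619 in LIF arrays. Of the 14 tested, 6 rose in pooled withdrawal (Col3a1, Col5a1, Col6a1, Cxcl12, Postn and Col1a1, the last with an adjusted p of 0.0213, or 0.0584 without LIF-free plus lithium replicate 1) and 2 fell (Thy1, adjusted p = 0.0349, or 0.0799 without LIF plus lithium replicate 1; Col5a2, 0.0303, or 0.0756 without LIF-free replicate 2), while Dcn, Lum and Fap were below the filter. Postn averaged 48.7 in LIF-free plus lithium, 41.5 in LIF-free, 4.38 in LIF plus lithium and 10.7 in LIF arrays, and Col3a1 40.5, 27.1, 5.72 and 14.0 in the same order of groups. Col1a2 (log2 change 0.07 ± 0.26, adjusted p = 0.887) and Pdgfrb (0.07 ± 0.25, adjusted p = 0.881) were not called, and the dim Dcn averaged 6.89, 5.70, 2.01 and 6.64. LIF replicate 1, the array that overlapped the LIF-free values in Cdh2, Cdh11 and Twist1, had the highest fibroblast sum among the arrays with LIF (619). Among those arrays it also had the highest endoderm (1955), early mesoderm (182) and neural (276) sums and the lowest stem cell sum (20739). The part of fibroblasts or feeder cells in the member results was not tested.

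Early mesoderm markers, Twist2 of the E-box list among them, rose in pooled withdrawal in 7 of 8 tested (median 1.81), with sums of 233 to 575 in LIF-free plus lithium, 194 to 628 in LIF-free, 103 to 139 in LIF plus lithium and 99.2 to 182 in LIF arrays. The early mesoderm list also named the gene T (Brachyury), which had no probe set of that symbol and was neither counted nor summed. Replicate 3 had the lowest early mesoderm sum in both groups without LIF, and Cdh2 and Vim were lowest there too. The highest early mesoderm sum was in replicate 2 of both groups (575 and 628), while Cdh2 and Vim were highest in replicate 1. The fibroblast, endoderm and neural sums were also lowest in replicate 3 of both groups without LIF. Of 11 endoderm genes 3 rose and 2 fell, with overlapping sums (1633 to 1796 in LIF-free plus lithium, 1636 to 2195 in LIF-free, 1077 to 1939 in LIF plus lithium and 1169 to 1955 in LIF arrays). Of 10 neural and neural crest genes 2 rose (Zic1, adjusted p = 0.0217, or 0.0586 without LIF-free plus lithium replicate 1; Tfap2a, 0.0299, or 0.0818 without LIF-free plus lithium replicate 2) and 1 fell (Foxd3), with sums of 241 to 312, 219.8 to 278, 164 to 268 and 228 to 276 in the same order of groups. Over all probe sets tested 13.9% rose and 10.8% fell in pooled withdrawal, and the endoderm and neural counts were not far from these shares. The part of each of these lineages in the member results was not tested.

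The genes whose profile over the 12 arrays was most like each called member were found by the root mean square difference of centred log2 values, among 12208 genes. For Cdh2 these were Cd44, a hyaluronan receptor, Mrc2 and Nrk, at 0.50, 0.51 and 0.51, where Cdh2 itself varied by 1.78. For Cdh11 they were Rspo3, a Wnt enhancer, Nrp1 and Bmp5, at 0.77, 0.87 and 0.95, where Cdh11 varied by 2.78. For Snai2 they were Has2, which makes hyaluronan, Capn6 and Prkd1, at 0.50, 0.50 and 0.51 of its own 1.60.

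For Vim the nearest were Megf9, Flrt3 and Arap2 (0.17, 0.20 and 0.20, own 0.84), and for Twist1 Apcdd1, Ccnd2 and Megf9 (0.32, 0.35 and 0.38, own 1.02). For Snai1 they were Gpr20, Wnt4 and Rubcn (0.27, 0.28 and 0.30, own 0.71), and for Cdh1 Katnbl1, Fgfr1op2 and Ctps2 (0.08, 0.09 and 0.09, own 0.24). No member was among the 3 nearest genes of another member.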

How the data were processed

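The values were deposited as MAS5 signal intensity per probe set on a linear scale. The authors used MAS5, per the submitters' processing notes; its version and settings are not given in the sources used here. The table holds 45101 probe sets, and 64 controls were left out. Each array's mean without its lowest and highest 2% was 100. Values under 1 were set to 1 (0.146% of tested values) before taking log2. Testing was limited to the 27022 probe sets whose mean log2 value passed the 40th percentile, equal to a signal of 7.52. The platform annotation gave 1 symbol to 34945 probe sets, several to 932 and none to 9160.

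Group means were estimated in 1 limma fit of the 12 arrays (limma 3.58.1, R 4.3.3; lmFit, then eBayes with trend), which left 8 residual degrees of freedom. Two-sided p-values were adjusted for all 27022 tests of a comparison by the Benjamini-Hochberg method, the threshold was 0.05, and "rose" or "fell" is used only past it. The 6 comparisons were withdrawal without lithium, with lithium and pooled, lithium without and with LIF, and the interaction. An exact permutation test of 3 against 3 arrays could not go below 0.1. The number of arrays limits the precision: the 95% interval of the log2 change in pooled withdrawal had a median half-width of 0.443 over tested probe sets. Intervals for 3 arrays against 3 were wider: for Vim the SE was 0.37 in withdrawal without lithium and 0.26 in pooled withdrawal. The fit was also run on simulated data with independent noise of equal size on every array. Such data lack the replicate-number correlation and the unequal array weights seen here, so that run cannot speak to either. Summaries and plots used Python 3.11.15, pandas 2.3.3 and matplotlib 3.10.9.

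The members and lists were chosen with earlier results of these data known. The 7 companion lists (other cadherins, catenins and partners, other E-box and transition factors with Id genes, epithelial, mesenchymal, TGF-beta, Snail turnover with corepressors) and 5 marker lists (embryonic stem cell, fibroblast, mesoderm, endoderm, neural) were counted, not tested as sets. Named genes were all members, tested other cadherins, up to 3 called genes per companion list with the smallest p in pooled withdrawal and up to 2 in each other comparison, or the 1 with the smallest p where none passed, and the 3 most like genes of each called member; clone and predicted-gene symbols were passed over. Marker genes and genes said to be named after their values were seen fall outside this rule.

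Replicate numbers, from the labels, were taken to pair arrays where residuals from group means correlated above 0.1 in all 3 pairs. The correlations for replicates 1, 2 and 3 were 0.438, 0.137 and 0.339 between LIF-free and LIF, 0.462, 0.111 and 0.3 between LIF-free plus lithium and LIF-free, and 0.499, 0.139 and 0.321 between LIF plus lithium and LIF, so these count as paired. Between LIF-free plus lithium and LIF plus lithium they were 0.451, 0.0972 and 0.379, which missed. Of the groups not compared directly, LIF-free plus lithium and LIF gave 0.385, 0.0316 and 0.181, which also missed. LIF-free and LIF plus lithium gave 0.542, 0.188 and 0.365, which passed. The replicate block was fitted to all groups together, so it also assumes pairing where the rule was missed. Alternatives were quantile normalization, median centring, a pseudocount of 16, no filter or the 60th percentile, array weights, the replicate block, a fit of only the compared groups, eBayes without trend, the mean or the second brightest probe set of a gene, and leaving out each array; leaving out a replicate number of every group was added after seeing the data.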

Additional observations from a re-analysis of the deposited data

Results flagged for a closer look

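Probe sets outside the brightest one per gene gave calls that the brightest one did not. The second Cdh2 set rose in withdrawal without lithium by a log2 change of 2.17 (adjusted p = 0.0489), where the brightest set gave 2.41 and an adjusted p of 0.0769. The second Zeb2 set rose by 2.24 in withdrawal with lithium (adjusted p = 0.0179) and by 1.82 in pooled withdrawal (adjusted p = 0.00383), where the brightest Zeb2 set gave 0.72 and 0.25 and passed in neither.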

How the results depend on the processing

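In pooled withdrawal, 7 members were called under most settings, among them quantile normalization, median centring, the pseudocount, no filter, no intensity trend and array weights. The count was 4 with the filter at the 60th percentile, which tests only 5 members, and 4 of the 5 with a tested second probe set. It was 6 to 7 with 1 array left out. With lithium it was 6, and 2 to 6 with 1 array left out. Without lithium it was 2, and 6 with the replicate block, 5 with array weights and 4 with the mean over probe sets (8 members tested). It was 1 from the compared arrays only, 0 with no intensity trend, and 0 to 4 with 1 array left out. Without lithium, 9.31% of all probe sets were called in the main fit, 19.5% with the replicate block and 29.1% with array weights. The share was 11.6% of genes with the mean over probe sets, 4.32% from the compared arrays only and 6.19% with no intensity trend. In pooled withdrawal array weights called 40.2%, against 24.7% in the main fit. The fits without lithium that called more members thus also called more of all features. The block changed no other count of called members by over 1.5 times; with lithium, where the numbers were not taken to pair the arrays, it gave 7. Leaving out replicate 1 of every group gave 4, 5 and 7 called members (without lithium, with lithium, pooled), replicate 3 gave 0, 5 and 7, and replicate 2 gave 0, 0 and 0. In the same order, 10.8%, 9.12% and 21.5% of all probe sets were called without replicate 1, and 2.74%, 7.08% and 18.0% without replicate 3. Without replicate 2, 0 probe sets were called in either single withdrawal (3198 and 3636 at an unadjusted p under 0.05) and 1088 in pooled withdrawal, and companion counts in pooled withdrawal fell to 12 of 31 epithelial, 6 of 21 mesenchymal, 2 of 11 E-box, 3 of 14 TGF-beta, 1 of 14 Snail turnover, 0 of 13 catenin and 0 of 8 early mesoderm genes. Replicate 2 arrays had weights of 1.84 to 4.06, the others 0.309 to 0.861. No member was called for lithium or for the interaction under any of these settings, and no called member changed sign. The causes were not tested. Values near a signal of 7.52 or below, as for Cdh11 and Twist1 with LIF, limit the size of a log2 change.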
